A study of Mus musculus with 6 samples.

Results

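Heat shock proteins and their DNAJ co-chaperones were followed in cells sorted as mouse peritoneal endothelial cells (MPECs). The peritoneum of the mice had been exposed to peritoneal dialysis (PD) fluid, or to saline, for 6 weeks. Members were the rows of the deposited count table named as an HSP70, HSP110, cytosolic HSP90, small heat shock protein, mitochondrial chaperonin or DNAJ gene, together with the stress regulators Hsf1, Bag3 and Chordc1. Hspa5 was left out, and a mean of at least 10 counts over the 6 mice was required. Of 22183 rows, 74 matched these names and 65 reached that mean. The other 9 averaged between 0 and 5.83 counts. All 65 members passed edgeR's filter on low counts and were among the 14005 genes tested.

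RNA was sequenced from 3 saline mice and 3 PD mice, with a separate library for each mouse. All were wild-type male C57BL/6J mice aged 8 to 10 weeks that received an intraperitoneal injection every day for 6 weeks, of saline in the control group and of high-glucose Dianeal PD fluid in the other. The cells came from the mesentery. The labels describe magnetic sorting on CD31, an endothelial surface protein, whereas the supplementary methods describe collagenase digestion and flow sorting of CD31+ CD45- cells. The preparations held other cell types besides endothelial cells, with marker levels that differed between the groups (below). The comparison is of these mixed preparations, and p-values cover the spread between these mice only.

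Chaperones keep other proteins folded. HSP70 proteins grip exposed stretches of an unfolded client in a cycle driven by ATP, J-proteins (the DNAJ family) bring clients and switch on the HSP70 ATPase, and nucleotide exchange factors such as HSP110 and BAG proteins reset it. HSP90 finishes the folding of kinases and receptors, including several that endothelial cells depend on, small heat shock proteins hold unfolded proteins without ATP, and the HSP60 and HSP10 chaperonin folds proteins inside mitochondria. When unfolded protein accumulates, the transcription factor HSF1 binds inverted repeats of a short unit, the heat shock element, in the promoters of many of these genes, whereas most J-proteins of class C are made at a steady level and serve a single organelle or process.

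Total counts ran from 21973426 to 26374292 per mouse. Values are given as CPM, the counts of a gene relative to a fixed total, after TMM scaling of library sizes where genes are followed between mice, and as the deposited FPKM, which accounts for transcript length, where genes are compared with each other. Log2 fold changes are those of PD mice over saline mice, each with its standard error (SE). The endothelial markers fixed for the check of cell identity were present in every library, and 11 of 12 were higher in PD mice, with a summed level of 1123 to 1129 CPM in saline mice and 1753 to 1843 CPM in PD mice. Markers that a CD31+ CD45- sort should lack were present too. Ptprc, which encodes CD45, was at 2373 ± 127 CPM (SD, n = 3) in saline mice and 1473 ± 63.6 CPM (SD, n = 3) in PD mice, above Pecam1, the gene of CD31, at 469 ± 19.4 CPM and 514 ± 7.85 CPM (SD, n = 3 each). Of the other pan-leukocyte markers, Coro1a was lower in PD mice as well (log2 fold change -0.40), but Laptm5 was higher (0.31). The summed level of 4 B cell markers went from 4987 to 5283 CPM in saline mice to between 2348 and 2380 CPM in PD mice, that of 6 macrophage markers from 755 to 779 CPM to between 3167 and 3220 CPM, and that of 6 pancreatic acinar markers from 1.02 to 2.86 CPM to between 5632 and 6358 CPM. Mesothelial markers (5 of 5 higher) went from a summed 10.5 to 14.4 CPM to between 126 and 145 CPM, and 4 neutrophil markers, 3 of them tested and higher, from 2.57 to 3.12 CPM to between 134 and 141 CPM. Of the acinar markers, Ctrb1 had 0 counts in 1 saline mouse. In bulk samples fewer cells of a type and less RNA per cell cannot be told apart, and the part of this shift in any result below was not tested.

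Taken over all 65 members, 23 were higher in PD mice (35.4%) and 13 were lower (20%) in the quasi-likelihood test of edgeR, at a threshold of 0.05 on p adjusted over all genes by Benjamini-Hochberg. Among all genes tested, 31.1% were called higher and 27.8% lower, so the share of members called was near the background in both directions. The values of PD and saline mice did not overlap in 39 members, 25 higher and 14 lower, while the groups did not overlap in 65.6% of all genes tested. The median log2 fold change was 0.13 for members and 0.02 for all genes. The calls divided by list. Of 17 heat-inducible members, a list of classical HSF1 targets written with earlier results of these data known, 14 were higher and 1 was lower, with a median log2 fold change of 1.19. Of the other 48 members, 9 were higher and 12 lower, with a median of -0.01. No class C J-protein was called higher among 25, and 9 were called lower.

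Scaling decided the sign for many members. The libraries were also scaled so that the geometric mean of the 12 endothelial markers was equal. The median of all genes then moved from 0.02 to -0.96, with 1154 of the 14005 genes tested called higher and 10118 lower. Of the members, 8 were called higher and 44 lower, and of the heat-inducible members 7 were called higher and 4 lower. This scaling moves every gene by about the same amount, so that distances from the median of all genes hardly change by construction: the heat-inducible median lay 1.17 above it, with 16 of 17 members above it and 1 below, and that of all members 0.12 above it with TMM scaling.

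**Figure D1:**
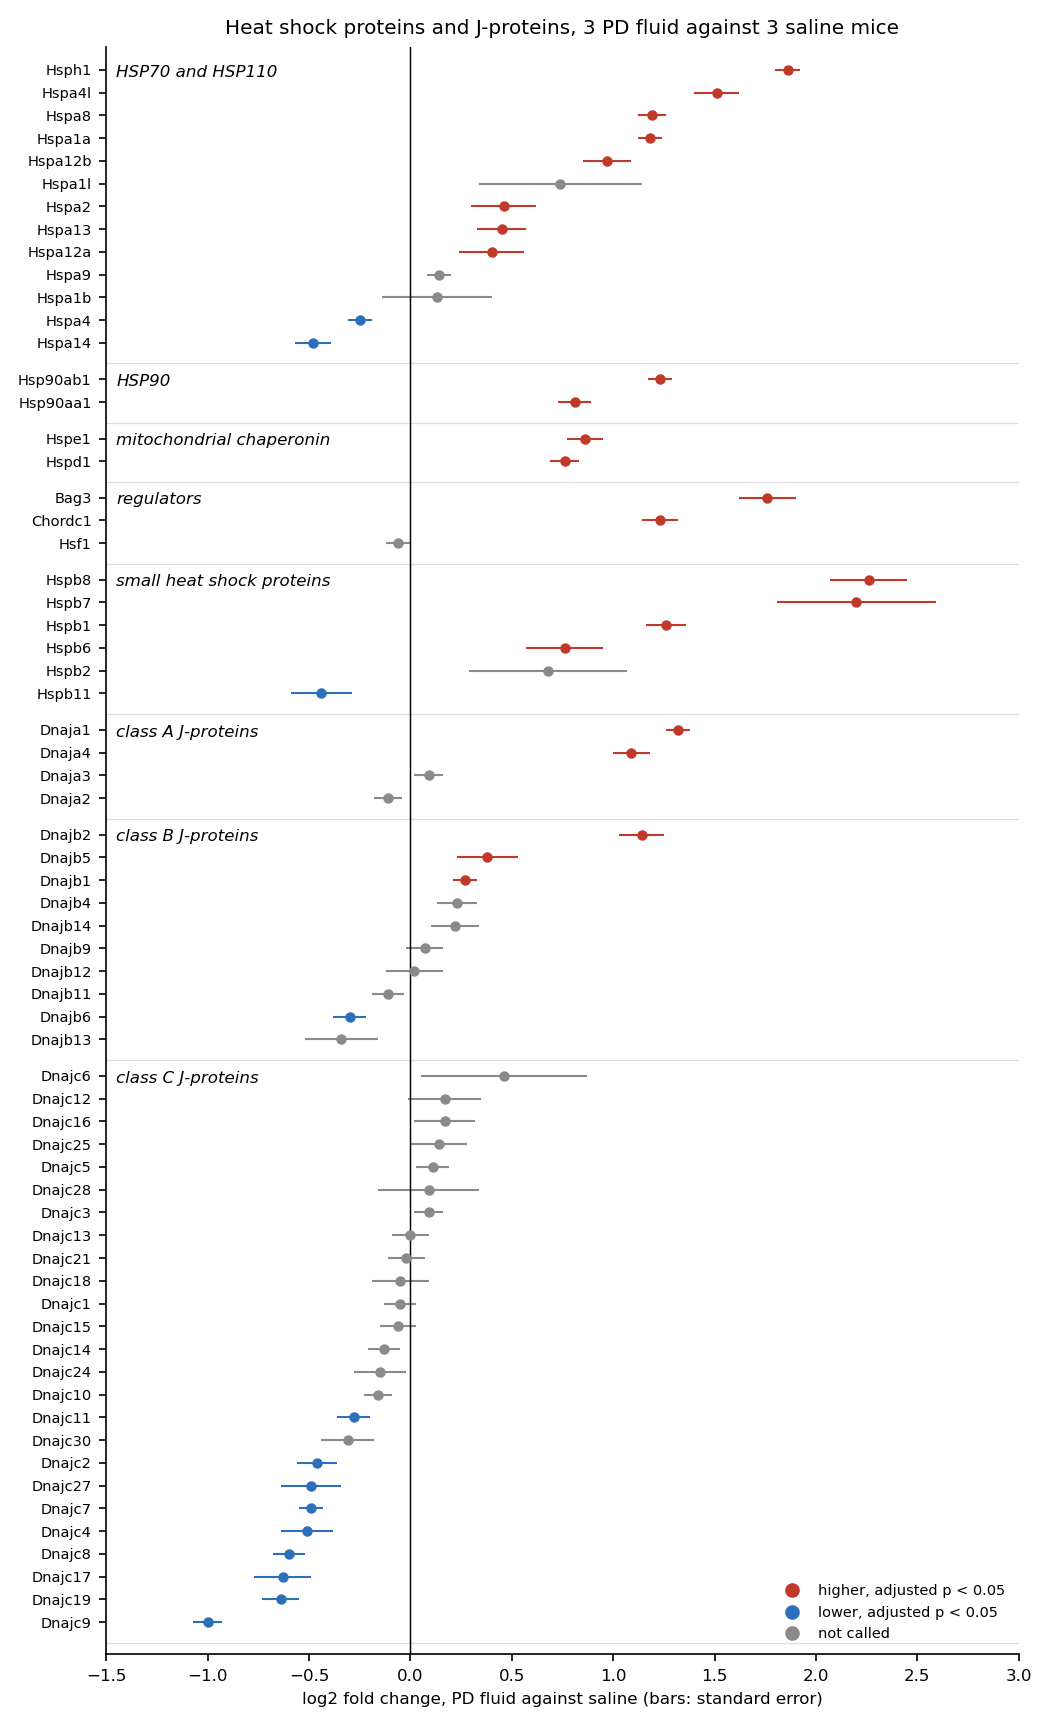
Log2 fold change of each of the 65 members in PD against saline mice (horizontal axis, bars are SE), grouped by family, with red points called higher, blue points called lower and grey points not called with TMM scaling. Points above 1 lie in the HSP70 and HSP110, HSP90, regulator, small heat shock protein, class A and class B groups. All 25 class C J-proteins lie between -1.0 and 0.46. Under endothelial marker scaling the median of all genes lay at -0.96, and 44 members and 10118 of the 14005 genes tested were called lower.

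**Figure D2:**
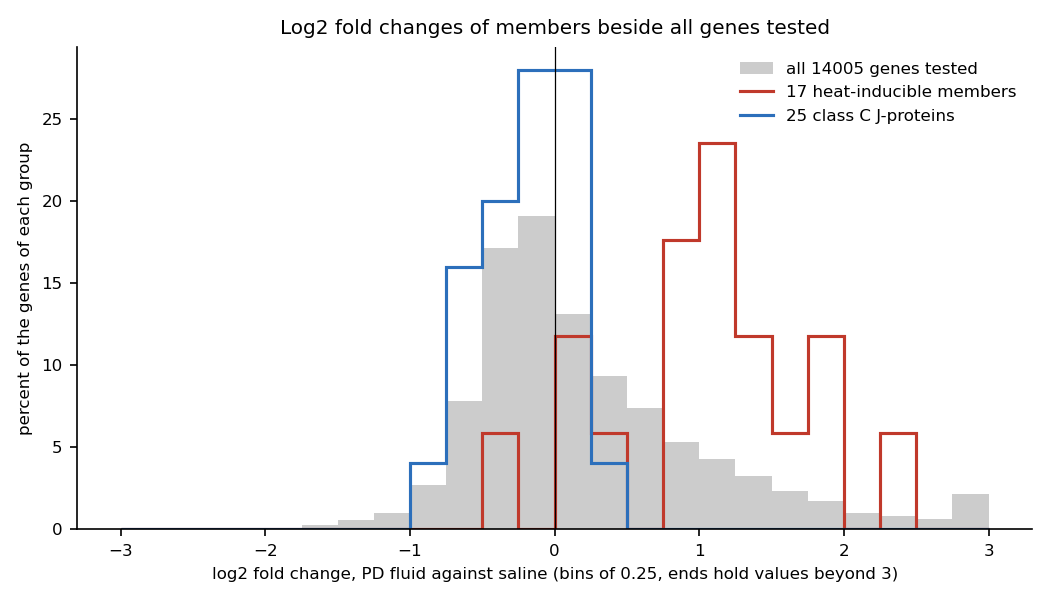
Share of genes (vertical axis, percent) in each bin of log2 fold change (horizontal axis) for all genes tested (grey area), the 17 heat-inducible members (red line) and the 25 class C J-proteins (blue line), with TMM scaling. The bin from 1 to 1.25 holds 23.53% of heat-inducible members and 4.29% of all genes, and no class C J-protein lies above 0.5.

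The share of all counts that fell on the 65 members rose from 0.783%, 0.814% and 0.781% in the 3 saline mice to 1.25%, 1.28% and 1.26% in the 3 PD mice. The ranges do not overlap. The heat-inducible members took 0.460% ± 0.0155 (SD, n = 3) of counts in saline mice and 0.972% ± 0.0148 (SD, n = 3) in PD mice, which left the other 48 at a summed 3277 to 3415 CPM in saline mice and 2767 to 3053 CPM in PD mice. Hspa8 alone took 0.176% ± 0.00686 and 0.404% ± 0.0115 of counts (SD, n = 3 each).

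By deposited FPKM, Hspa8 had the highest level of all members in saline mice at 755 ± 26.4 FPKM (SD, n = 3), followed by Dnajc8 at 246 ± 7.12, Hsp90ab1 at 239 ± 9.07, Hsp90aa1 at 212 ± 26.6, Dnajc7 at 206 ± 7.67, Hspa1a at 177 ± 5.21 and Dnajc9 at 169 ± 3.16 FPKM. Dnajc8 and Hsp90ab1, their means within 1 SD of each other, did not differ beyond their spread, and neither did Hsp90aa1 and Dnajc7. In PD mice Hspa8 was at 1725 ± 43.9 FPKM, Hsp90ab1 at 565 ± 30.5, Hspa1a at 404 ± 13.9 and Hsp90aa1 at 365 ± 7.70 FPKM, so that the first 4 places were all held by genes of the heat-inducible list. The lowest level in saline mice was that of Hspb7 at 0.112 ± 0.0318 FPKM. Members called higher had a median saline level of 12.9 FPKM, those called lower 37.3 FPKM and those not called 13.8 FPKM.

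**Figure D3:**
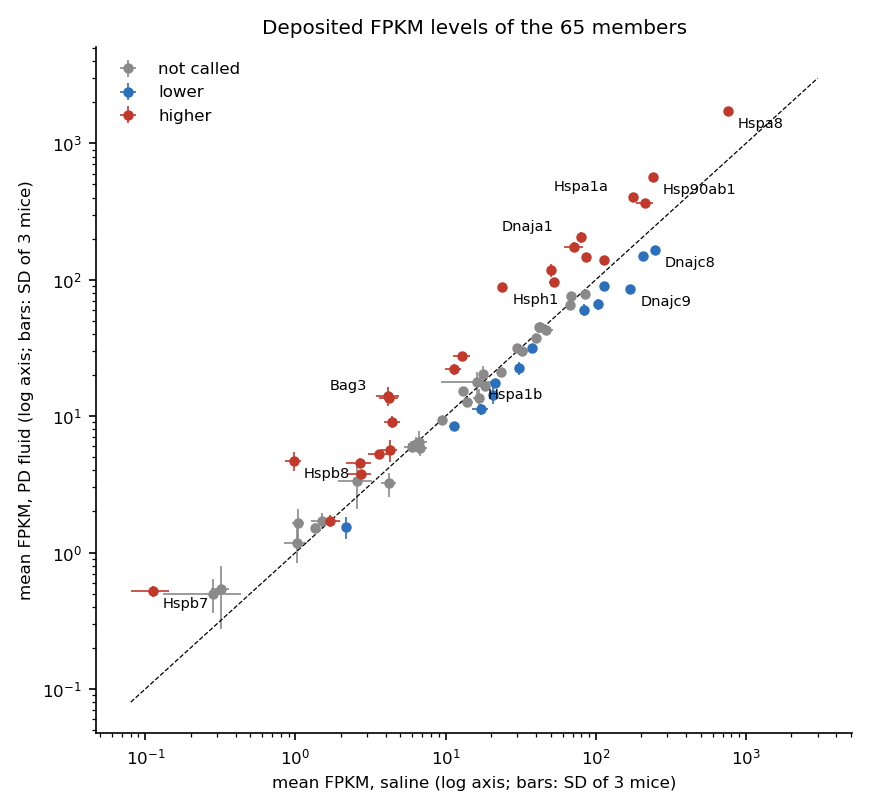
Mean deposited FPKM of each member in saline mice (horizontal axis) and PD mice (vertical axis), both on log axes with bars for the SD of 3 mice; the dashed line marks equal levels and colours mark the edgeR call with TMM scaling. Hspa8 lies at the top right at 755 FPKM in saline and 1725 FPKM in PD mice, and Dnajc9 lies below the line at 169 and 85.2 FPKM.

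Promoter sequences were searched for the heat shock element. A RefSeq window of 300 bases, from 250 before to 50 after each start site on GRCm38.p6, was found for 52 of the 65 members; there was none for Hsp90aa1, Hsp90ab1, Hspa8, Hspa9, Hspa13, Hspb2, Hsf1, Dnajc2, Dnajc5, Dnajc11, Dnajc12, Dnajc18 and Dnajc30. Both strands were searched for 2 inverted units in a row, GAANNTTC or TTCNNGAA, and for 3 or more such units in a row. A match to 2 units stood in 16 of 52 members (30.8%) against 17% of 27025 genes, and 3 units or more in 5 members (9.62%) against 0.66% of genes. By call, 2 units were found in 11 of 19 members called higher (57.9%), 2 of 11 called lower (18.2%) and 3 of 22 not called (13.6%). The members include classical HSF1 targets, and most of those called higher are on that list. These shares were therefore partly set by the choice of genes and test nothing about PD fluid. The 5 members with 3 units or more were Hspd1, Hspe1, Hsph1 and Chordc1, which rose, and Dnajb6, which fell. Hspd1 and Hspe1 share 1 and the same run, read from opposite strands, so they are not separate cases. A match describes the letters and is neither a bound site nor a cause, and some of these letters also spell the core of an ETS site (GGAA).

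Stretches of 60 bases around the longest runs of units, and around the matches of the members followed most closely below, are shown here from the coding strand of each gene with the matched units in capitals. The stretch of Hspe1 lies at chr1:55088038-55088097 on the + strand, in the window that it shares head to head with Hspd1 on the other strand. That of Hsph1 lies at chr5:149636286-149636345 (-), Chordc1 at chr9:18292237-18292296 (+) and Dnajb6 at chr5:29735828-29735887 (+). That of Hspa1a lies at chr17:34972227-34972286 (-), Dnaja1 at chr4:40722318-40722377 (+), Dnaja4 at chr9:54699443-54699502 (+), Hspb1 at chr5:135887776-135887835 (+) and Hspb8 at chr5:116422835-116422894 (-).
Hspe1: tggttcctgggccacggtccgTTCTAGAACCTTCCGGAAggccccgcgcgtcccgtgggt
Hsph1: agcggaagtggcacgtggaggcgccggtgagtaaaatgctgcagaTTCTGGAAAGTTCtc
Chordc1: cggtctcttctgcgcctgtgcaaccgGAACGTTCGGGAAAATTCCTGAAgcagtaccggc
Dnajb6: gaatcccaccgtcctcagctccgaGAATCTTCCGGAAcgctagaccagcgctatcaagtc
Hspa1a: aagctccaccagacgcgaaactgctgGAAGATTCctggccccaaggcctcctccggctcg
Dnaja1: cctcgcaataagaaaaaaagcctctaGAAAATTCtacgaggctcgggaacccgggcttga
Dnaja4: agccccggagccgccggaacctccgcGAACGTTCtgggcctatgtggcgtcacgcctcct
Hspb1: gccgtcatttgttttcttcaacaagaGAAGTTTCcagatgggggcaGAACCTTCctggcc
Hspb8: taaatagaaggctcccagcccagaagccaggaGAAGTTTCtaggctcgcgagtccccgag

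The run of units is 5 in Chordc1, 4 in Hspe1 and Hspd1, and 3 in Hsph1 and Dnajb6. In Hspa1a the match begins 104 bases upstream of the start site, in Dnaja1 124 bases and in Hspb1 117 bases upstream, while those of Hspb8 and the longest runs of Chordc1 and Hsph1 lie at or just past the start.

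**Figure D4:**
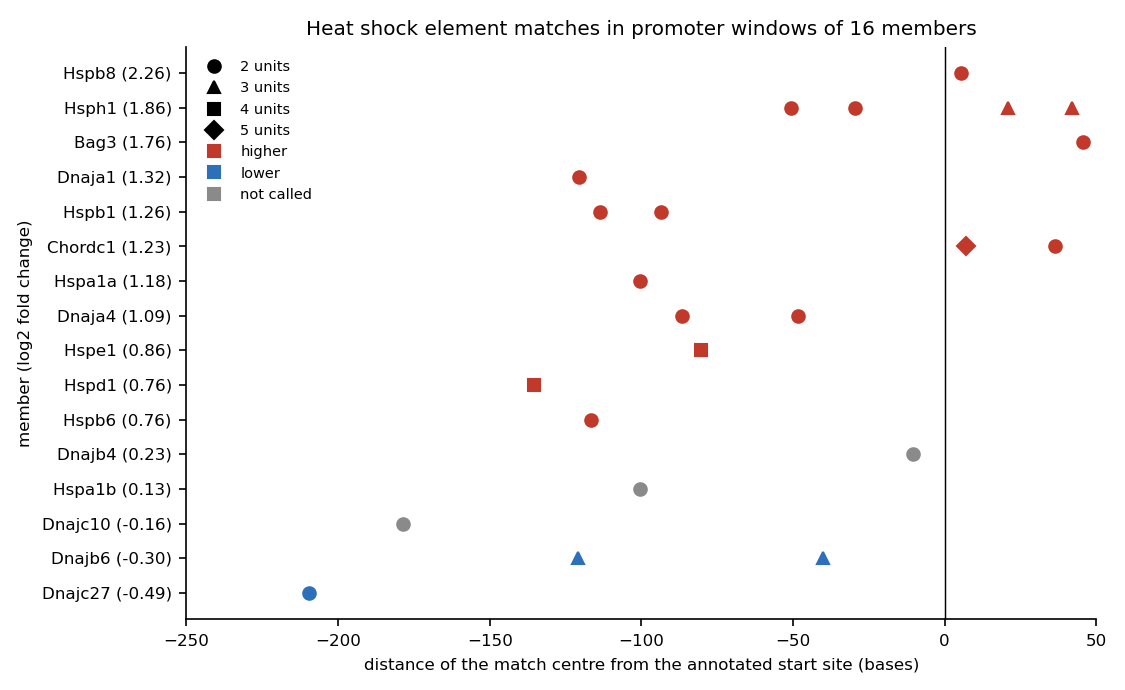
Position of each run of inverted heat shock units relative to the annotated start site (horizontal axis, bases) in the promoter windows of the 16 members that hold at least 2 units, sorted by log2 fold change with TMM scaling (given beside each name); the marker shape gives the number of units and the colour the edgeR call. Hsph1 and Dnajb6 have 2 annotated start sites each, so the same run appears at 2 distances. Of the 16 members 11 were called higher, against 19 of the 52 members with a window and 31.1% of all genes tested. These shares were partly set by the choice of genes.

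The HSP70 and HSP110 group had 8 of 13 members called higher (61.5%) and 2 lower (15.4%), against 31.1% and 27.8% of all genes. With endothelial marker scaling 2 were higher and 7 lower, against 1154 and 10118 of the 14005 genes tested. Hspa8, the constitutive cytosolic HSP70 on chromosome 9, stood at 1724, 1864 and 1715 CPM in saline mice and 3792, 4116 and 4177 CPM in PD mice. The groups were far apart, and the log2 fold change was 1.19 (SE 0.07, adjusted p = 1e-07), against 0.21 and no call with endothelial marker scaling. Of all stretches of 100 bases in its transcript, 62.8% also occur in another annotated gene, mostly the pseudogene Gm15459, so its count depends on how shared reads were assigned. Hspa1a, a stress-inducible HSP70 on chromosome 17 with the match shown above, was at 523, 519 and 541 CPM in saline mice and 1200, 1203 and 1183 CPM in PD mice. It rose by a log2 fold change of 1.18 (SE 0.06, adjusted p = 2.5e-08), against 0.20 and no call with endothelial marker scaling.

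Hspa1b, its near-identical neighbour, did not follow it. Its level was 54.5, 59.1 and 23.0 CPM in saline mice and 48.4, 40.9 and 60.6 CPM in PD mice. The groups overlapped and the log2 fold change was 0.13 (SE 0.27, adjusted p = 0.693). The promoter windows of Hspa1a and Hspa1b are identical at 296 of 300 bases (98.7%), and the stretch printed for Hspa1a is the same in both. Of the 100-base stretches of Hspa1b, 49.9% occur in Hspa1a as well, so the 2 counts are uncertain apart. In a summed count of both, chosen after seeing the data, the level was 577.1, 578.3 and 563.8 CPM in saline mice and 1249, 1244 and 1244 CPM in PD mice, a log2 fold change of 1.12 (SE 0.055, adjusted p = 3.32e-08).

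Hsph1, an HSP110 that acts as nucleotide exchange factor and holdase, had one of the smallest errors and largest rises. Its level was 83.4, 91.1 and 86.7 CPM in saline mice and 305, 322 and 321 CPM in PD mice. No PD mouse was below 305 CPM, and the log2 fold change was 1.86 (SE 0.06, adjusted p = 2e-09), higher than that of 94.5% of all genes tested. Hspa4l, a second HSP110, was at 16.7, 14.3 and 13.6 CPM in saline mice and 37.9, 43.7 and 45.5 CPM in PD mice, with a log2 fold change of 1.51 (SE 0.11, adjusted p = 9.7e-07). The third, Hspa4, went the other way. It was at 178, 173 and 167 CPM in saline mice and 141, 146 and 148 CPM in PD mice, and fell by 0.25 on the log2 scale (SE 0.06, adjusted p = 0.0037), the only heat-inducible member called lower with TMM scaling. Hsph1 and Hspa4l were called higher under endothelial marker scaling as well, at 0.88 and 0.54, and Hspa4 stayed lower at -1.24.

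Among the remaining HSP70 genes, Hspa12b, an atypical HSP70 known from endothelial cells, had the largest rise. It was at 15.7, 12 and 13.4 CPM in saline mice and 28.9, 26.8 and 25 CPM in PD mice, a log2 fold change of 0.97 (SE 0.12, adjusted p = 5.6e-05). The 12 endothelial markers moved the same way, with log2 fold changes from 0.13 (Pecam1, not called) to 1.65 (Tie1), and 11 were called higher. With endothelial marker scaling the value for Hspa12b was -0.01 and not called. The part of the endothelial markers in the rise of Hspa12b was not tested. Hspa2, a testis-enriched HSP70, was at 6.52, 6.00 and 8.16 CPM in saline mice and 8.76, 10.2 and 9.56 CPM in PD mice, with a log2 fold change of 0.46 (SE 0.16, adjusted p = 0.026), a call that was lost in 4 of 6 fits that left out 1 mouse. Hspa13, which resides in microsomes, was at 13.8, 16.8 and 12.9 CPM in saline mice and 20.5, 19.7 and 19.3 CPM in PD mice, with a log2 fold change of 0.45 (SE 0.12, adjusted p = 0.0075). Hspa12a, the other atypical HSP70, lay just inside the threshold. It was at 4.88, 5.12 and 6.21 CPM in saline mice and 6.77, 7.55 and 7.11 CPM in PD mice, with a log2 fold change of 0.40 (SE 0.16, adjusted p = 0.048), a call that was lost, among other alternatives, in DESeq2 and in 5 of 6 fits that left out 1 mouse, and on the deposited FPKM (limma-trend) its log2 fold change was 0.01. With endothelial marker scaling Hspa2, Hspa13 and Hspa12a turned to -0.51, -0.54 and -0.58.

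Hspa14, a ribosome-associated HSP70, fell. It was at 141, 158 and 152 CPM in saline mice and 92.1, 115 and 116 CPM in PD mice, and fell by 0.48 on the log2 scale (SE 0.09, adjusted p = 0.0012), and 13.1% of its 100-base stretches also belong to Gm45902. Its partner on the ribosome, the J-protein Dnajc2, was also lower, at 65.7 ± 4.82 CPM (SD, n = 3) in saline mice and 47.8 ± 5.85 CPM (SD, n = 3) in PD mice, and fell by 0.46 on the log2 scale (SE 0.10, adjusted p = 0.0024). Hspa9, the HSP70 of the mitochondrial matrix, lay just short of the threshold at a log2 fold change of 0.14 (SE 0.06, adjusted p = 0.062), although its groups did not overlap. Hspa1l, at under 2 CPM in every mouse and with 71.9% of its exon bases under an antisense transcript, was not called.

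Both cytosolic HSP90 genes rose with TMM scaling. With endothelial marker scaling Hsp90ab1 was called higher at 0.24, right at the threshold (adjusted p = 0.05 after rounding). Hsp90aa1 was then at -0.18 and not called. Hsp90ab1, the constitutive isoform, was at 598, 635 and 580 CPM in saline mice and 1438, 1447 and 1368 CPM in PD mice, a log2 fold change of 1.23 (SE 0.06, adjusted p = 3.9e-08). Hsp90aa1, the inducible isoform, was at 417, 462 and 369 CPM in saline mice and 702, 743 and 742 CPM in PD mice, a log2 fold change of 0.81 (SE 0.08, adjusted p = 9.8e-06). Thus the isoform named as constitutive had the larger estimate, though the difference between the isoforms was not tested, and 47.5% of the 100-base stretches of Hsp90aa1 occur in other genes. Hsp90b1, the HSP90 of the endoplasmic reticulum and no member, was at 573 ± 43.0 CPM and 684 ± 29.0 CPM (SD, n = 3 each), with a log2 fold change of 0.25 (SE 0.07, adjusted p = 0.0084).

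The mitochondrial chaperonin pair, divergently transcribed from the window shown for Hspe1, rose together with TMM scaling, but lay at -0.22 and -0.12 and was not called with endothelial marker scaling. Hspd1, which encodes HSP60, was at 187, 211 and 192 CPM in saline mice and 312, 345 and 343 CPM in PD mice, a log2 fold change of 0.76 (SE 0.07, adjusted p = 5.1e-06). Hspe1, its HSP10 lid, was at 42.3, 43.5 and 37.2 CPM in saline mice and 68.7, 77.1 and 77.5 CPM in PD mice, a log2 fold change of 0.86 (SE 0.09, adjusted p = 1.2e-05). The ranges of neither gene overlapped. Among 10 mitochondrial members these were the 2 called higher (20%). The J-proteins Dnajc19, Dnajc4 and Dnajc11 were lower (30%) and 5 were not called. Among all genes 31.1% were higher and 27.8% lower. With endothelial marker scaling none of the 10 mitochondrial members was higher and 8 were lower, against 1154 and 10118 of the 14005 genes tested.

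Of the regulators, Bag3 and Chordc1 rose and Hsf1 did not. Bag3, a co-chaperone that hands clients of HSP70 and Hspb8 to autophagy, was at 8.98, 10.4 and 12.6 CPM in saline mice and 40.7, 35.9 and 31.2 CPM in PD mice. The lowest PD mouse stood well above the highest saline mouse, and the log2 fold change was 1.76 (SE 0.14, adjusted p = 2e-06), with 0.77 and a call under endothelial marker scaling. Chordc1, an HSP90 co-chaperone with the longest run of heat shock units among the 52 members that had a window, was at 124, 153 and 137 CPM in saline mice and 295, 331 and 347 CPM in PD mice, a log2 fold change of 1.23 (SE 0.09, adjusted p = 6.8e-07), which was 0.25 and not called under endothelial marker scaling. Hsf1, the transcription factor of the heat shock response, was at 140, 131 and 141 CPM in saline mice and 130, 131 and 134 CPM in PD mice. The groups overlapped, and its log2 fold change was -0.06 (SE 0.06, adjusted p = 0.427).

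**Figure D5:**
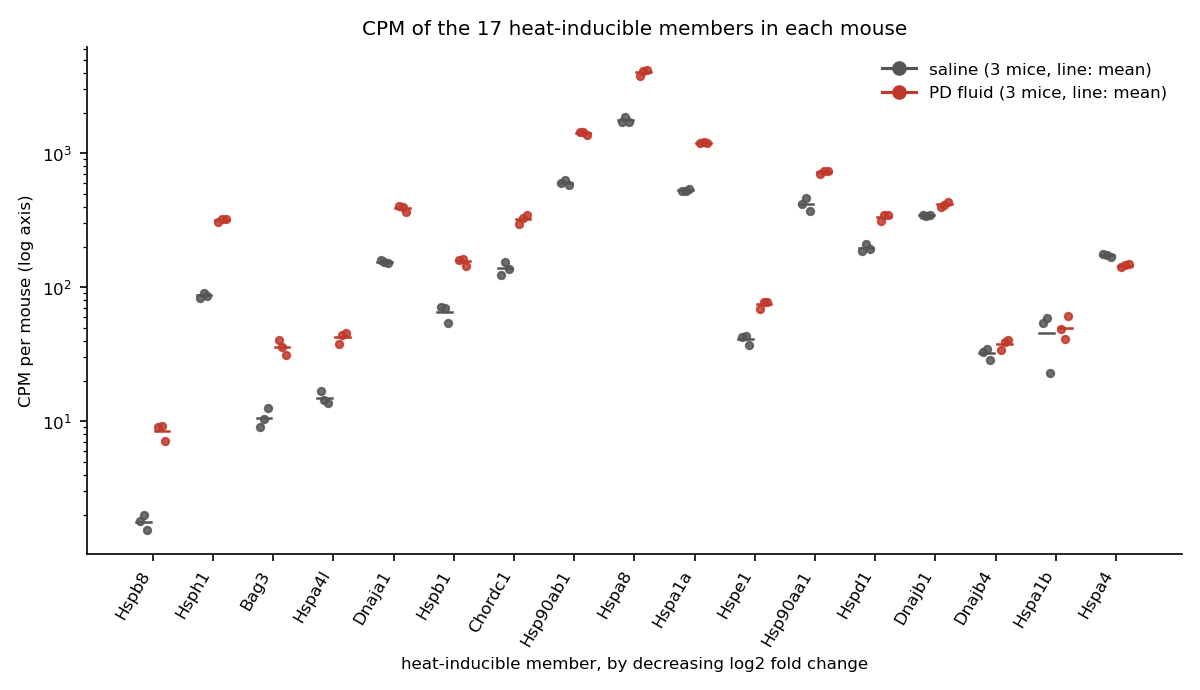
CPM of the 17 heat-inducible members in each of the 3 saline (grey) and 3 PD (red) mice on a log axis, ordered by log2 fold change with TMM scaling, with a line at each mean. The PD points lie above all saline points in 14 members, below them in Hspa4, and among them in Dnajb4 and Hspa1b, where 1 saline mouse is at 23.0 CPM. Of the 14005 genes tested, 4758 had all PD values above and 4425 had all PD values below the saline values.

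Small heat shock proteins had 4 of 6 members called higher (66.7%) and 1 lower (16.7%) with TMM scaling, against 31.1% and 27.8% of all genes. With endothelial marker scaling 3 were higher and 1 lower, against 1154 and 10118 of the 14005 genes tested. Hspb1, the major small heat shock protein and a cofactor of actin dynamics in endothelium, was at 71.6, 70.0 and 54.1 CPM in saline mice and 161, 163 and 145 CPM in PD mice. The log2 fold change of Hspb1 was 1.26 (SE 0.10, adjusted p = 2.2e-06), and 42.7% of its 100-base stretches are shared with the pseudogene Hsp25-ps1. With endothelial marker scaling Hspb1 was just inside the threshold at 0.27 (adjusted p = 0.044). Hspb8, the partner of Bag3, and Hspb7 had the largest estimates of all members with TMM scaling, and their order lies within the error. Hspb8 was at 1.80, 1.98 and 1.53 CPM in saline mice and 9.12, 9.14 and 7.11 CPM in PD mice, a log2 fold change of 2.26 (SE 0.19, adjusted p = 3.5e-06).

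Hspb7 and Hspb6, both best known from cardiac and smooth muscle, also rose with TMM scaling, and Hspb6 turned to -0.22 with endothelial marker scaling. Hspb7 was at 0.351, 0.369 and 0.207 CPM in saline mice and 1.43, 1.3 and 1.59 CPM in PD mice, with a log2 fold change of 2.2 (SE 0.39, adjusted p = 0.00065). Its saline values rest on 9, 8 and 5 counts. Hspb6 was at 3.32, 3.23 and 4.43 CPM in saline mice and 5.63, 6.71 and 6.25 CPM in PD mice, with a log2 fold change of 0.76 (SE 0.19, adjusted p = 0.0051). Pericyte and smooth muscle markers moved the same way: all 6 were called higher, with a summed level of 276 to 296 CPM in saline mice and 437 to 487 CPM in PD mice, and their part in the rise of these small heat shock proteins was not tested. Hspb2, at 0.547 to 0.646 CPM in saline and 0.662 to 1.18 CPM in PD mice, was not called, and exons of Cryab cover 30.2% of its exon bases. Hspb11, a part of the transport machinery of cilia rather than a chaperone of heat stress, fell by 0.44 on the log2 scale (SE 0.15, adjusted p = 0.028).

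Among class A J-proteins, the general partners of HSP70, 2 of 4 (50%) rose with TMM scaling, against 31.1% of all genes. With endothelial marker scaling 1 was higher and 2 were lower, against 1154 and 10118 of the 14005 genes tested. Dnaja1, with its match upstream of the start, was at 161, 154 and 151 CPM in saline mice and 406, 396 and 364 CPM in PD mice. The log2 fold change of Dnaja1 was 1.32 (SE 0.06, adjusted p = 3.2e-08), and with endothelial marker scaling it was 0.34 and still called. Dnaja4 was at 40.9, 33.4 and 41.9 CPM in saline mice and 81.3, 82.4 and 84.1 CPM in PD mice, a log2 fold change of 1.09 (SE 0.09, adjusted p = 2.7e-06), against 0.12 and no call with endothelial marker scaling. Exons of Wdr61 on the other strand cover 44.1% of its exon bases, and the strand setting of the counting is not given, so reads of this pair may not be told apart. Dnaja2, with a log2 fold change of -0.11 (SE 0.07), and Dnaja3, with 0.09 (SE 0.07), were not called.

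Class B J-proteins had 3 of 10 members higher, a share near the 31.1% of all genes, and 1 lower with TMM scaling. Under endothelial marker scaling none were higher and 9 were lower, against 1154 and 10118 of the 14005 genes tested. Dnajb2, a J-protein that delivers clients to the proteasome and is best known from neurons, was at 22.1, 16.6 and 19.0 CPM in saline mice and 44.4, 43.9 and 39.3 CPM in PD mice, a log2 fold change of 1.14 (SE 0.11, adjusted p = 1e-05), against 0.17 and no call with endothelial marker scaling. Dnajb1, the inducible HSP40, rose much less. It was at 343, 341 and 348 CPM in saline mice and 400, 409 and 435 CPM in PD mice, a log2 fold change of 0.27 (SE 0.06, adjusted p = 0.0024) that turned to -0.71 with endothelial marker scaling. Dnajb4, a close relative of it, was at 33.0, 34.4 and 28.7 CPM in saline mice and 33.8, 39.2 and 40.1 CPM in PD mice. The ranges overlapped, and the log2 fold change of 0.23 (SE 0.10, adjusted p = 0.067) was just short of the threshold. Dnajb5 was just inside it at 0.38 (SE 0.15, adjusted p = 0.043), with overlapping groups.

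Dnajb6, which suppresses aggregation of polyglutamine proteins, was the class B member that fell, and it holds the run of 3 units shown above. It was at 201 ± 12.2 CPM (SD, n = 3) in saline mice and 162 ± 14.7 CPM (SD, n = 3) in PD mice, and fell by 0.30 on the log2 scale (SE 0.08, adjusted p = 0.0063). Of its 100-base stretches, 31.0% occur in other genes.

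Class C J-proteins had 9 of 25 called lower (36%) and none higher with TMM scaling. Among all genes tested 27.8% were lower and 31.1% higher. With endothelial marker scaling 24 were called lower, as were 10118 of the 14005 genes tested. Dnajc9, a nuclear J-protein that binds histones H3 and H4 and is known to be made in dividing cells, had the largest fall of all members. It was at 270, 284 and 276 CPM in saline mice and 128, 138 and 151 CPM in PD mice, and fell by 1.0 on the log2 scale (SE 0.07, adjusted p = 7.2e-07), a lower value than all but 2.0% of genes tested. Of 4 cycling cell markers 3 were lower, Ccnb1 at -0.89, Cdk1 at -0.67 and Top2a at -0.48, and Mki67 was at 0.01, for a summed level of 107 to 113 CPM in saline mice and 72.8 to 79.7 CPM in PD mice. Their part in the fall of Dnajc9 was not tested.

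Of 5 nuclear and ribosomal J-proteins 4 were lower (80%), Dnajc9 and Dnajc2 among them, against 27.8% of all genes. All 5 were lower with endothelial marker scaling, as were 10118 of the 14005 genes tested. Dnajc8, a splicing-associated J-protein and one of the most abundant members by FPKM in saline mice, was at 326, 350 and 330 CPM in saline mice and 197, 224 and 245 CPM in PD mice, and fell by 0.60 on the log2 scale (SE 0.08, adjusted p = 9.1e-05). Dnajc17, also linked to splicing, was at 15.4, 19.8 and 16.8 CPM in saline mice and 10.2, 10.8 and 12.8 CPM in PD mice, and fell by 0.63 (SE 0.14, adjusted p = 0.0026). Dnajc21, which matures the large ribosomal subunit, was not called. Its log2 fold change was -0.02 (SE 0.09, adjusted p = 0.881), with 19.2 to 20.1 CPM in saline mice and 19.1 to 19.5 CPM in PD mice.

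Of the mitochondrial class C members, Dnajc19, a J-protein of the inner membrane import motor, was at 84.6, 82.6 and 75.9 CPM in saline mice and 45.5, 53.8 and 57.2 CPM in PD mice, and fell by 0.64 on the log2 scale (SE 0.09, adjusted p = 0.00017). Dnajc4 was at 20, 21.0 and 18.8 CPM in saline mice and 11.7, 13.8 and 16.7 CPM in PD mice, and fell by 0.51 (SE 0.13, adjusted p = 0.0077). The highest PD mouse was below the lowest saline mouse in both genes. Dnajc11, of the inner membrane organising complex, fell by 0.28 (SE 0.08, adjusted p = 0.0087), and Dnajc30 was just short of the threshold at -0.31 (SE 0.13, adjusted p = 0.063), with 26.2% of its exon bases overlapped by Bud23. The close paralogue of Dnajc19, Dnajc15, was at -0.06 (SE 0.09, adjusted p = 0.564).

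Dnajc7, a cytosolic J-protein with TPR domains that passes clients between HSP70 and HSP90, was at 349, 377 and 358 CPM in saline mice and 247, 257 and 268 CPM in PD mice. No PD mouse reached the saline range, and it fell by 0.49 on the log2 scale (SE 0.06, adjusted p = 5.7e-05). Dnajc27, a small GTPase with a J-domain, was at 9.02, 8.95 and 9.77 CPM in saline mice and 7.43, 5.87 and 6.39 CPM in PD mice, and fell by 0.49 (SE 0.15, adjusted p = 0.014). This call was lost without PD fluid replicate 2, at -0.41.

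Members of the endoplasmic reticulum were mostly not called. With TMM scaling 1 of 11 was higher (Hspa13, 9.09%) and none lower, against 31.1% and 27.8% of all genes. All 11 were lower with endothelial marker scaling, as were 10118 of the 14005 genes tested. The median of the 11 then lay 0.05 above that of all genes. With TMM scaling the log2 fold changes of the 11 ran from -0.16 to 0.45. The Dnajb9 and Dnajc3 genes, which respond to unfolded protein in the endoplasmic reticulum, were at 0.07 (SE 0.09) and 0.09 (SE 0.07), and Dnajb11, the co-chaperone of Hspa5, was at -0.11 (SE 0.08). Dnajc10, a reductase of that compartment, was just short of the threshold at -0.16 (SE 0.07, adjusted p = 0.056). Hspa5 itself, which the rule leaves out, was at 1333 ± 41.9 CPM (SD, n = 3) in saline mice and 1828 ± 76.9 CPM (SD, n = 3) in PD mice, a log2 fold change of 0.46 (SE 0.06, adjusted p = 9.3e-05). The 3 vesicle J-proteins Dnajc5, Dnajc6 and Dnajc13 were not called, with log2 fold changes of 0.11 (SE 0.08), 0.46 (SE 0.41) and 0.00 (SE 0.09). The 5 members nearest to 0 were Dnajc13, Dnajb12, Dnajc21, Dnajc18 and Dnajc1, between -0.05 and 0.02.

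Of 47 other chaperone genes that the rule does not take, 15 were higher (31.9%) and 12 lower (25.5%). These shares were near the 31.1% and 27.8% of all genes, and the median log2 fold change of the 47 was -0.02. Under endothelial marker scaling 3 were higher and 42 lower, against 1154 and 10118 of the 14005 genes tested. HSP90 co-chaperones had 5 of 14 higher (35.7%) and 2 lower (14.3%) with TMM scaling, but 1 higher and 12 lower with endothelial marker scaling. The values of single genes that follow are those with TMM scaling. Stip1, which joins HSP70 to HSP90, was at 175 ± 6.67 CPM (SD, n = 3) in saline mice and 457 ± 25.5 CPM (SD, n = 3) in PD mice, with a log2 fold change of 1.39 (SE 0.06, adjusted p = 2.4e-08). Fkbp5, a steroid receptor co-chaperone, was at 117 ± 4.50 and 269 ± 11.3 CPM (SD, n = 3 each), with 1.19 (SE 0.06, adjusted p = 5.9e-08). The largest rise was that of Cryab, a small heat shock protein of muscle, at 1.81 (SE 0.15, adjusted p = 3.1e-06), and Serpinh1, the collagen chaperone, was at 1.26 (SE 0.13, adjusted p = 1.3e-05). Serpinh1 rose beside 5 of 5 fibroblast markers, whose summed level was 71.9 to 76.6 CPM in saline mice and 695 to 755 CPM in PD mice, and their part in it was not tested.

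CCT and prefoldin are the complexes that fold actin and tubulin. In the CCT ring 5 of 8 subunits were higher (62.5%), none were lower and 3 were not called with TMM scaling, with a median of 0.30. In prefoldin, which delivers clients to it, all 6 subunits were lower, with a median of -0.35. Among all genes 31.1% were higher and 27.8% lower. With endothelial marker scaling all 8 CCT and all 6 prefoldin subunits were lower, as were 10118 of the 14005 genes tested. Relative to the median of all genes the CCT list lay 0.28 above and the prefoldin list 0.37 below it. Pfdn1 fell by 0.53 on the log2 scale (SE 0.10, adjusted p = 0.0013) and Pfdn5 by 0.42 (SE 0.11, adjusted p = 0.0055). Ubb, a polyubiquitin gene usually raised by heat shock, fell by 0.52 (SE 0.10, adjusted p = 0.0012), from 9384 ± 334 to 6536 ± 1040 CPM (SD, n = 3 each). Grpel2, an exchange factor of mitochondrial HSP70, fell by 0.38 (SE 0.08, adjusted p = 0.0013).

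Immediate early genes, which respond within minutes to the handling and digestion of tissue, were measured beside the members. All 15 of the list were called higher in PD mice, against 31.1% of all genes. Their median log2 fold change was 0.91, with a summed level of 8520 to 9454 CPM in saline mice and 16269 to 16409 CPM in PD mice. With endothelial marker scaling 4 were higher and 4 lower, against 1154 and 10118 of the 14005 genes tested. All 15 lay above the median of all genes. Fos was at 1493 ± 45.0 CPM and 2784 ± 107 CPM (SD, n = 3 each), Atf3 at 103 ± 4.38 and 243 ± 12 CPM, and Dusp1 at 1326 ± 39.2 and 2785 ± 216 CPM. Their part in the rise of the heat-inducible members was not tested.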

How the data were processed

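Cells sorted as MPECs from 3 saline and 3 PD mice were sequenced as poly(A) RNA. The authors deposited whole-number read counts and FPKM values for each mouse. The submitters' processing notes name fastp 0.18.0, Bowtie2 2.2.8, HISAT2, StringTie 1.3.1 and RSEM without roles, so the deposited counts may be rounded estimates. The genome build and strand setting are not given in the sources used here. Columns of the authors' own comparison (group mean FPKM, log2 ratio, p-value and FDR) were not used, and every column of sample values matched a sample. Groups came from the labels.

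Counts of all 14005 genes kept by filterByExpr were scaled by TMM and tested with edgeR 4.0.16 (R 4.3.3, two-sided quasi-likelihood test, no covariate, Benjamini-Hochberg adjustment, threshold 0.05), where the methods name limma. The deposited FPKM were used for levels and for limma-trend on log2(FPKM + 1). DESeq2 1.42.0 and limma 3.58.1 served as alternatives, besides no filter, other scalings, the replicate number as a block, a fold of at least 1.5, a mean of at least 100 counts and leaving out each mouse. Samples of a group differed by more than counting noise.

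Symbols and identifiers were taken from the table, positions and shared 100-base stretches from GENCODE M21 on GRCm38, and promoter windows from RefSeq. Members, lists and tests were chosen with earlier results of these data known, so none is independent evidence of direction. Values in every mouse are given for the heat-inducible members and for the 8 further members that rose most and the 8 that fell most, if called and with groups that do not overlap. Of the other chaperone genes, the 4 largest called rises and falls are named. Sequences of proteins were not analysed here.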

Additional observations from a re-analysis of the deposited data

How the results depend on the processing

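With no count filter, DESeq2, limma-voom, library totals, upper quartile scaling, TMM without acinar genes or limma-trend on FPKM, between 21 and 24 members were higher and 13 or 14 lower. Endothelial marker scaling moved the median of members to -0.86 and gave 8 higher and 44 lower members, 7 higher and 4 lower heat-inducible members, and 3 higher and 42 lower other chaperone genes. Of the 14005 genes tested, 1154 were then higher and 10118 lower. The sign of several estimates turned, since this scaling sets the endothelial markers, which are higher in PD mice, to no change. Dnajb1 (-0.71), Hspa2 (-0.51), Hspa13 (-0.54) and Hspa12a (-0.58) went from called higher to called lower. Hspa1b (-0.86) and Dnajb4 (-0.75), not called with TMM scaling, were called lower. Hsp90aa1 (-0.18), Hspd1 (-0.22), Hspe1 (-0.12), Hspa12b (-0.01) and Hspb6 (-0.22) lay below 0 but were not called. Hspa1a (0.20), Hspa8 (0.21), Chordc1 (0.25), Dnajb2 (0.17) and Dnaja4 (0.12) lost their call. With a change of at least 1.5-fold, 4 members and 0 heat-inducible members were lower, and 7 other chaperone genes were higher and 0 lower. The median of members was 0.10 with limma-trend on FPKM and 0.10 with a mean of at least 100 counts. Without each mouse in turn it ran from 0.07 (without PD fluid replicate 3) to 0.15, with 20 to 22 members higher and 11 to 14 lower; the cause was not tested. Hspa2 was lost in 4 of these fits, and Dnajb4 was called in 2 of them and with library totals. Levels under 1 CPM (Hspb7, Hspb2, Hspa1l) limit precision by depth.

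With the replicate block, 22 members were higher and 13 lower, and Hspa12a was not called. The deviations of samples with the same replicate number correlated at 0.105, 0.041 and -0.173, and not every sample correlated best with its own number. With 3 samples per group, these correlations cannot settle whether the replicate numbers mark pairs.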
